A study of Rattus norvegicus with 34 samples.

Results

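Whole rat kidney was compared with proximal tubule and glomerulus, a pair of compartments cut from kidney sections by laser microdissection. The comparison used 3 samples of the 34 in the series, chosen by their labels as the kidney library and the proximal tubule and glomerulus libraries of TaqMan card A. All 3 came from Sprague-Dawley rats aged 4 weeks, with no treatment or genotype named in the labels. Kidney RNA was isolated with TRIzol and was not preamplified, whereas the RNA of both compartments was isolated with the mirVana PARIS kit and was preamplified for 12 cycles. The study looked for miRNAs shared by tubular organs and for miRNAs particular to the proximal tubule, and the comparison addressed which compartment the whole organ resembles. Each compartment was measured once per card, so no difference can be set against replicate libraries and no test of a difference between them was made. Since the extraction kit and the preamplification both differ between organ and compartments, their part in a difference between kidney and a compartment cannot be told apart from that of the compartment.

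By base pairing with messenger RNAs, microRNAs (miRNAs) tune how much protein a cell makes from them, and many miRNAs are abundant in some cell types and scarce in others. The nephron filters blood in the glomerulus, a tuft of capillaries held by mesangial cells and covered by podocytes, and recovers most of the filtrate in the proximal tubule, a tube of epithelial cells with a brush border. Proximal tubules make up much of the renal cortex, whereas glomeruli take up a small part of it. Whole kidney also holds distal tubules, collecting ducts, vessels, and interstitial cells, which neither dissected sample was meant to contain. In a bulk sample, fewer cells of a type and less RNA per cell give the same reading.

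Every well of card A carries 1 small RNA assay. CP is the cycle number at which the signal of the reaction passes a set level. A lower CP means more template, and 1 cycle corresponds to a doubling when amplification is complete. The card has 384 numbered positions, which the files do not pair with miRNAs. Positions are therefore given by number, no mature sequence is printed, and the labelled compartments could not be checked against miRNAs known to mark epithelium or vessels. Positions 11, 12, 35, and 36, which gave nearly equal values within a library, were left out, and 380 positions were used. A position counted as detected at a CP of at most 35. Values were scaled by subtracting, in each library, the median CP over the 160 positions detected in all 3 libraries, which was 28.30 in kidney, 27.98 in proximal tubule, and 27.97 in glomerulus.

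These 4 positions, called repeated here from their nearly equal values, were taken as the only repeated wells. Their CP was 17.7 ± 0.195 in kidney, 18.3 ± 0.414 in proximal tubule, and 19.3 ± 0.496 in glomerulus (SD, n = 4 wells each). In glomerulus they ran from 18.82 to 19.99. The wells were picked for being alike and their assays are not named, so these SDs do not measure the precision of a well. They do not hold the spread between animals either. The repeated positions came 0.589 cycles later in proximal tubule and 1.58 cycles later in glomerulus than in kidney, while the scaling medians were nearly level. The choice of scale therefore matters. Scaling to the repeated positions in place of the medians would raise every difference of proximal tubule over kidney by 0.91 cycles, of glomerulus over kidney by 1.91 cycles, and of glomerulus over proximal tubule by 1.00 cycle. Values of single positions are given with the scaling medians, and the main counts with both. In the compartments, CP values also lay near whole cycles, so that 97.5% of the 160 differences between proximal tubule and glomerulus were within 0.1 cycles of a whole number. Against kidney, this share was 16.9% for proximal tubule and 15.6% for glomerulus. On card B, kidney rows did not correlate with those of proximal tubule (Spearman correlation 0.0712 over 384 rows) or glomerulus (0.0453), although the compartments correlated with each other (0.829), and card B was not compared.

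Nearly everything detected in a compartment was also detected in the whole kidney. Of 380 positions, 239 were detected in kidney, 186 in proximal tubule, and 177 in glomerulus. Kidney held 179 of the 186 positions of proximal tubule, or 96.2% (95% Wilson confidence interval 92.4% to 98.2%). It also held 171 of the 177 positions of glomerulus, or 96.6% (92.8% to 98.4%). Some other libraries held about as many, so this overlap was not particular to the parent organ. Lung, with 249 detected positions, held 175 of those of proximal tubule and 171 of those of glomerulus. Bronchial gland, with 248, held 176 and 170. In the other direction, 74.9% of the kidney positions were detected in proximal tubule (69.0% to 80.0%) and 71.5% in glomerulus (65.5% to 76.9%). Both of these shares come from the same 239 kidney positions and from single libraries, so their intervals do not compare the compartments. Detection alone was not taken to place the kidney nearer to either. All intervals here cover counting error only.

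Positions missing from the compartments were mostly late ones in kidney. All 17 positions with a kidney CP of up to 24 were detected in both compartments. Of the 59 positions above 24 and up to 28, proximal tubule held 55 and glomerulus 56. Of the 56 positions above 32 and up to 34, proximal tubule held 27, or 48.2% (35.7% to 61.0%), and glomerulus 20, or 35.7% (24.5% to 48.8%). The 49 positions detected in kidney alone had a median kidney CP of 32.9, against 28.3 for the 160 positions detected in all 3 libraries.

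**Figure D1:**
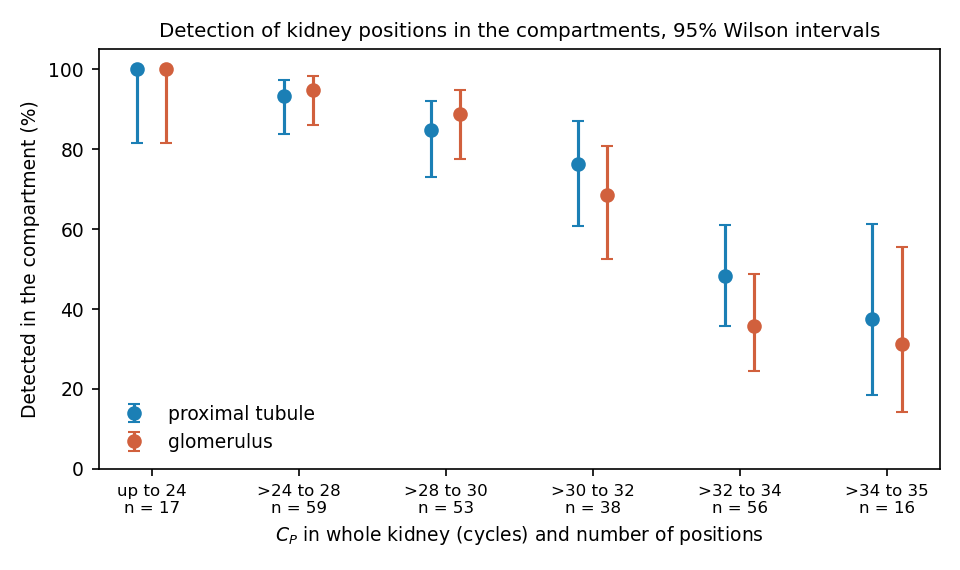
Share of kidney positions detected in proximal tubule and glomerulus (vertical axis, percent) by the CP of the position in whole kidney (horizontal axis, cycles, with the number of positions). Points are shares and bars are 95% Wilson intervals, and both compartments go from 100% at a kidney CP of up to 24 to 37.5% and 31.2% above 34.

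Some positions were early in kidney and still undetected in both compartments. At position 252 the CP was 27.17 in kidney, and no amplification was recorded in either compartment. The same held at positions 225 (27.42), 370 (27.93), 364 (28.12), 379 (28.16), and 138 (28.49). Positions 225 and 364 were detected in all 12 tissues of the series, whereas position 370 was detected in 7 of them. These 6 positions thus gave a signal in the whole organ and in neither dissected sample. Why the dissected samples gave none was not tested. In the other 3 microdissected samples, bronchial gland, mammary gland, and intestinal villus, each of the 6 was detected in at least 1, and positions 379 and 138 were detected in all 3.

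Kidney shared 19 further positions with proximal tubule alone and 11 with glomerulus alone. The positions shared with proximal tubule were late, with a median kidney CP of 32.7. The earliest was position 97, with a CP of 28.03 in kidney and 29.97 in proximal tubule and no amplification in glomerulus. At position 215 the CP was 30.96 in kidney and 30.95 in proximal tubule. The 11 positions shared with glomerulus had a median kidney CP of 30.99. At position 366 the CP was 29.18 in kidney and 25.14 in glomerulus, and at position 288 it was 30.99 and 27.95, with no amplification in proximal tubule at either. Position 365 went the other way, with 27.75 in kidney and 29.07 in glomerulus. Position 288 was detected in only 2 of the 12 tissues, kidney included. Position 260 was counted as shared with glomerulus alone because its CP of 35.01 in proximal tubule lay just above the limit.

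Only 11 positions were detected in a compartment and not in kidney. At position 156 the CP was 19.04 in proximal tubule and 19.06 in glomerulus, among the earliest values of both, against 37.03 in kidney. Position 305 gave 27.10 in proximal tubule and 25.07 in glomerulus and did not amplify in kidney. It was detected in 1 of the 12 tissues. Position 241 was seen in glomerulus at 22.20 and amplified in neither kidney nor proximal tubule, and position 77 behaved likewise at 26.05. Bronchial gland and mammary gland, which were preamplified too, held both of these, with CP 22.85 and 24.45 at position 241. The positions seen in proximal tubule alone were late, from 30.45 at position 313 to 34.96 at position 210. Positions 141 and 345 were in this group with kidney values of 35.04 and 35.03, just above the limit.

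Over the 160 positions detected in all 3 libraries, whole kidney followed proximal tubule more closely than glomerulus. The Spearman correlation of CP across positions was 0.876 between kidney and proximal tubule, 0.808 between kidney and glomerulus, and 0.859 between the compartments. These correlations do not depend on the scale, and they are descriptions over positions that share libraries. Differences between kidney and proximal tubule had an SD over positions of 1.56 cycles, and those between kidney and glomerulus 2.10 cycles. The median absolute difference was 0.897 cycles for proximal tubule and 1.18 cycles for glomerulus, with 89 and 70 positions within 1 cycle. On the scale of the repeated positions, the medians were 1.15 and 2.31 cycles, with 69 and 22 positions within 1 cycle. Among the 20 positions with the lowest CP in kidney, 16 were among the lowest 20 of proximal tubule and 14 of those of glomerulus. The other 14 libraries shared between 7 (pancreas) and 15 (prostate and small intestine) of them.

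The order of the compartments was the same at each level of expression. In the 53 positions with the highest expression, the Spearman correlation with kidney was 0.672 for proximal tubule and 0.386 for glomerulus. In the middle 53 it was 0.316 and -0.0148, and in the lowest 54 it was 0.449 and 0.263. The range of CP within each of these sets is narrower than over all 160 positions.

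**Figure D2:**
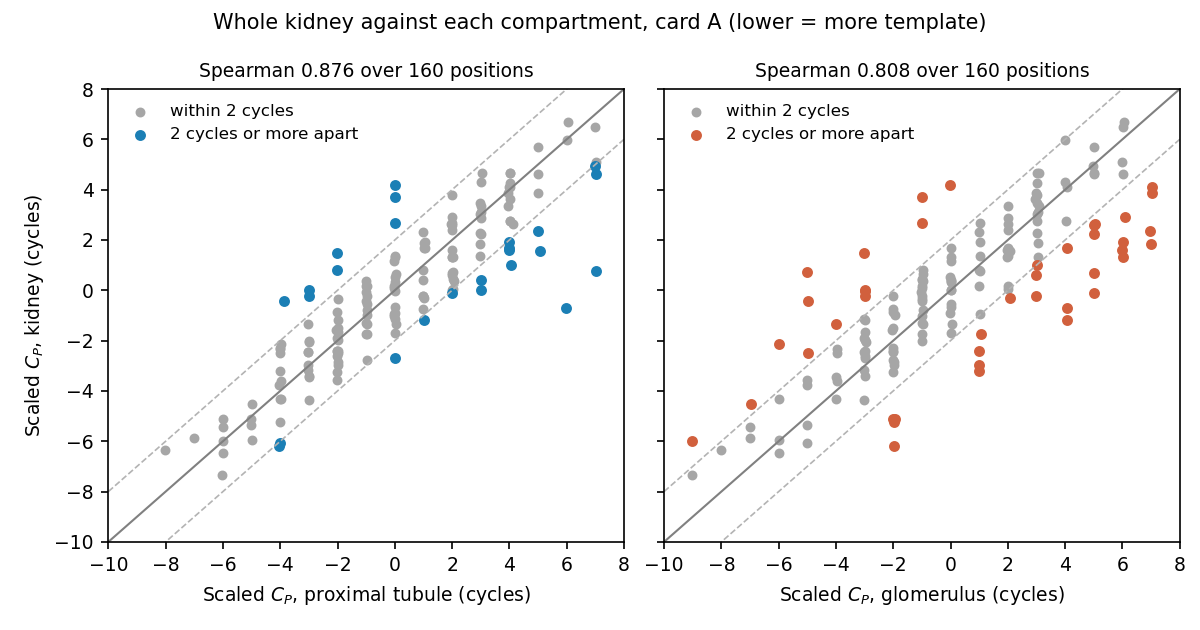
Scaled CP of whole kidney (vertical axis, cycles) against that of proximal tubule (left) and glomerulus (right) for the 160 card A positions detected in all 3 libraries; each point is 1 position, and dashed lines mark 2 cycles. Coloured points, 25 on the left and 42 on the right, lie at least 2 cycles from equality, and the compartment values stand in columns because they lie near whole cycles.

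A difference was counted when it reached 2 cycles, which is 4-fold when amplification is complete. Between kidney and proximal tubule, 25 of 160 positions (15.6%) differed, 17 of them higher in kidney (10.6%) and 8 higher in proximal tubule (5%). Between kidney and glomerulus, 42 positions (26.2%) differed, 28 higher in kidney (17.5%) and 14 higher in glomerulus (8.75%). The directions depended on the scale. When libraries were scaled by their repeated positions instead, 5 were higher in kidney and 27 in proximal tubule, and 12 were higher in kidney and 81 in glomerulus. The 2 comparisons share the kidney library, so they are given side by side only.

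The positions of highest expression in kidney were 61, 103, 41, 114, and 371. Position 61 had a CP of 20.97 in kidney, 21.95 in proximal tubule, and 18.96 in glomerulus, so glomerulus was 1.68 cycles above kidney after scaling. Position 103 was alike in all 3, with scaled CP -6.46, -6.00, and -5.98. Position 41 was higher in both compartments than in kidney, by 1.68 and 1.65 cycles. Position 114 had a CP of 22.11 in kidney, 23.95 in proximal tubule, and 26.00 in glomerulus, so expression was lower in the tubule than in the organ and lower still in the glomerulus. Position 371 had 22.22, 23.98, and 22.96. Kidney thus lay nearer to proximal tubule than to glomerulus at 61, 103, and 114 and nearer to glomerulus at 41 and 371, although at positions 103 and 41 the compartments were less than 0.1 cycles apart.

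Where the compartments differed most, kidney was mostly nearer to proximal tubule at the positions that were higher there. Proximal tubule and glomerulus were at least 2 cycles apart at 42 positions (26.2% of 160), with 24 higher in proximal tubule (15%) and 18 higher in glomerulus (11.2%). With the repeated positions as the scale these numbers were 14 and 40. Since the differences lie near whole cycles, a threshold of 2 cycles divides those near 2, and at 1.5 cycles the numbers were 27 and 25. Kidney was nearer to proximal tubule at 30 of the 42 positions, or 71.4% (95% Wilson confidence interval 56.4% to 82.8%), compared with 90 of all 160 positions, or 56.2%. It was nearer to proximal tubule at 23 of the 24 positions higher in proximal tubule, where its median expression was 0.56 cycles above proximal tubule and 3.24 cycles above glomerulus. At the 18 positions higher in glomerulus, kidney was nearer to proximal tubule at 7 and to glomerulus at 11. It lay between the compartments at 13 of these 18 and at 9 of the 24. Kidney was above both at 5 of the 18 and at 15 of the 24, where the compartment of higher expression is always the nearer. Nearness was therefore open only where kidney lay between them.

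The scale changed this division more than the total. With the repeated positions as the scale, kidney was nearer to proximal tubule at 43 of 54 positions, or 79.6%. These were 9 of the 14 positions higher in proximal tubule and 34 of the 40 higher in glomerulus. Without scaling they were 34 of 43, with 21 of 23 and 13 of 20. Over all positions at which the compartments were apart, proximal tubule was the nearer compartment more often under each of these scales. At the positions higher in glomerulus the nearer compartment varied. With a scale from the 78 positions detected in all 17 libraries, kidney was nearer to proximal tubule at 6 of 18, and with the scaling medians but a threshold of 1 cycle or a detection limit of 32 it was so at 22 of 42 and 7 of 14.

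**Figure D3:**
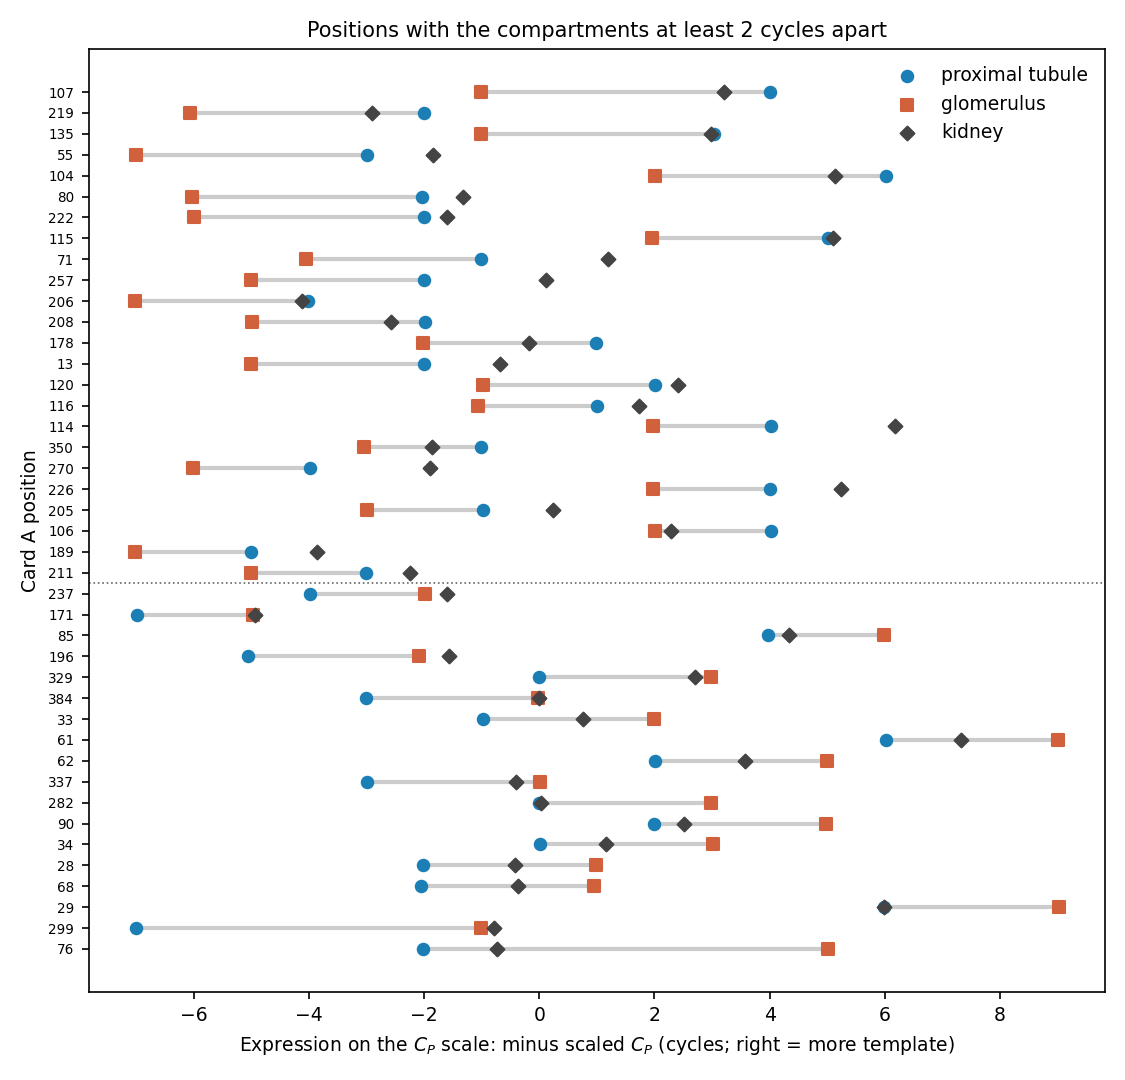
Expression of the 42 positions at which proximal tubule and glomerulus lay at least 2 cycles apart (vertical axis, card A position number), as minus the scaled CP (horizontal axis, cycles, more template to the right). Circles are proximal tubule, squares glomerulus, and diamonds whole kidney. The 24 positions higher in proximal tubule are above the dotted line and the 18 higher in glomerulus below it. On this scale the diamond is nearer to the circle in 23 of the upper 24 and in 7 of the lower 18. It lies to the right of both in 15 of the upper 24 and 5 of the lower 18, which fixes the nearer compartment. With the repeated positions as the scale, the numbers nearer to the circle are 9 of 14 and 34 of 40.

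Among the positions higher in proximal tubule, the lead over glomerulus was largest at position 107. Its CP was 23.96 in proximal tubule, 28.98 in glomerulus, and 25.09 in kidney. Proximal tubule was 5.02 cycles above glomerulus, and kidney was 4.21 cycles above glomerulus and 0.81 below proximal tubule. Position 104 had the same form at a higher level, with CP 21.96, 25.95, and 23.17 in the same order and a lead of 4.00 cycles. At each, the 3 tissues of highest expression were liver, small intestine, and kidney, with kidney the lowest of these 3. At position 104 kidney was 6.14 cycles above the median of the other 11 tissues, and at position 107 it was at least 4.28 cycles above it, with 1 of the tissues undetected.

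At position 135 kidney and proximal tubule were almost equal, with CP 25.31 and 24.95 against 28.98 in glomerulus, a lead of proximal tubule over glomerulus of 4.04 cycles. Position 115 was alike, with 23.19 in kidney, 22.97 in proximal tubule, and 26.02 in glomerulus. Positions 219, 55, and 80 were late in glomerulus, up to 34.98 at position 55, so their leads of 4.07, 4.02, and 3.99 cycles were measured close to the detection limit. At position 71 kidney exceeded both compartments, with CP 27.10 in kidney, 29.00 in proximal tubule, and 32.03 in glomerulus.

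Among the positions higher in glomerulus, position 76 stood farthest out. Its CP was 22.96 in glomerulus, 29.99 in proximal tubule, and 29.04 in kidney, so that glomerulus was 7.03 cycles above proximal tubule and 5.76 above kidney. Kidney was low there also among tissues, in place 9 of 12. At position 299 the low sample was proximal tubule, with CP 34.98 against 28.98 in glomerulus and 29.08 in kidney. At the remaining positions led by glomerulus, the lead was at most 3.03 cycles. Positions 29, 68, 28, and 34 had leads of 3.03, 3.01, 3.01, and 3.01 cycles. At position 29 kidney equalled proximal tubule (scaled CP -5.99 in both, -9.02 in glomerulus), while at positions 68, 28, and 34 it lay between them.

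The sets of positions higher in either compartment were chosen by the difference between the compartments and were then read in the whole tissues. Kidney took part in the choice, since every position had to be detected in it and the scale was set over such positions. No other tissue had to pass this filter. At the 24 positions higher in proximal tubule, kidney expression was above the median of the other 11 tissues at 20, compared with 56.2% of all 160 positions. Small intestine, salivary gland, and lacrimal gland were each above the median of the other tissues at 17 of the 24, against 43.8%, 47.5%, and 52.5% of all positions. Heart was above it at 6 and spleen at 5, against 58.8% and 64.4%. At the 18 positions higher in glomerulus, heart was above at 15 and skeletal muscle at 16 (54.4% of all positions), small intestine at 3, and kidney at 9. Heart was thus low at the positions higher in proximal tubule and high at those higher in glomerulus, and small intestine was low at the latter. With the repeated positions as the scale, heart was above at 3 of 14 and at 33 of 40 positions, against 67.5% of all positions. Kidney was above at 13 of 14 and 15 of 40, against 47.5%. Small intestine was above at 7 of 14 and 6 of 40, against 29.4%. Skeletal muscle was above at 8 of 14 and 17 of 40, against 36.2% of all positions on that scale, and salivary gland at 10 of 14 and 31 of 40, against 72.5%.

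Whole kidney and proximal tubule were each the nearest library to the other among all 17 of card A by Spearman correlation. Over the 78 positions detected in every library, the Spearman correlation of kidney was 0.877 with proximal tubule, 0.825 with bile duct, 0.790 with small intestine, and 0.765 with lung. Glomerulus came eighth, with 0.721, close to bronchial gland (0.716), mammary gland (0.713), and intestinal villus (0.705). These 4 neighbours cannot be ordered without replicates. For proximal tubule the order was kidney with 0.877, glomerulus with 0.731, and bile duct with 0.706. For glomerulus it was proximal tubule with 0.731, kidney with 0.721, skeletal muscle with 0.703, bile duct with 0.683, and heart with 0.672. Over the positions detected in each pair of libraries, the correlation of kidney with glomerulus was 0.802, behind proximal tubule, lung, and small intestine, while that with proximal tubule was 0.892 and again first. With a detection limit of 40 and the Pearson correlation, small intestine came first for kidney (0.856), ahead of proximal tubule (0.845), and glomerulus came first for proximal tubule (0.866). With a detection limit of 32, the order for glomerulus was skeletal muscle (0.794), heart (0.775), and kidney (0.743).

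**Figure D4:**
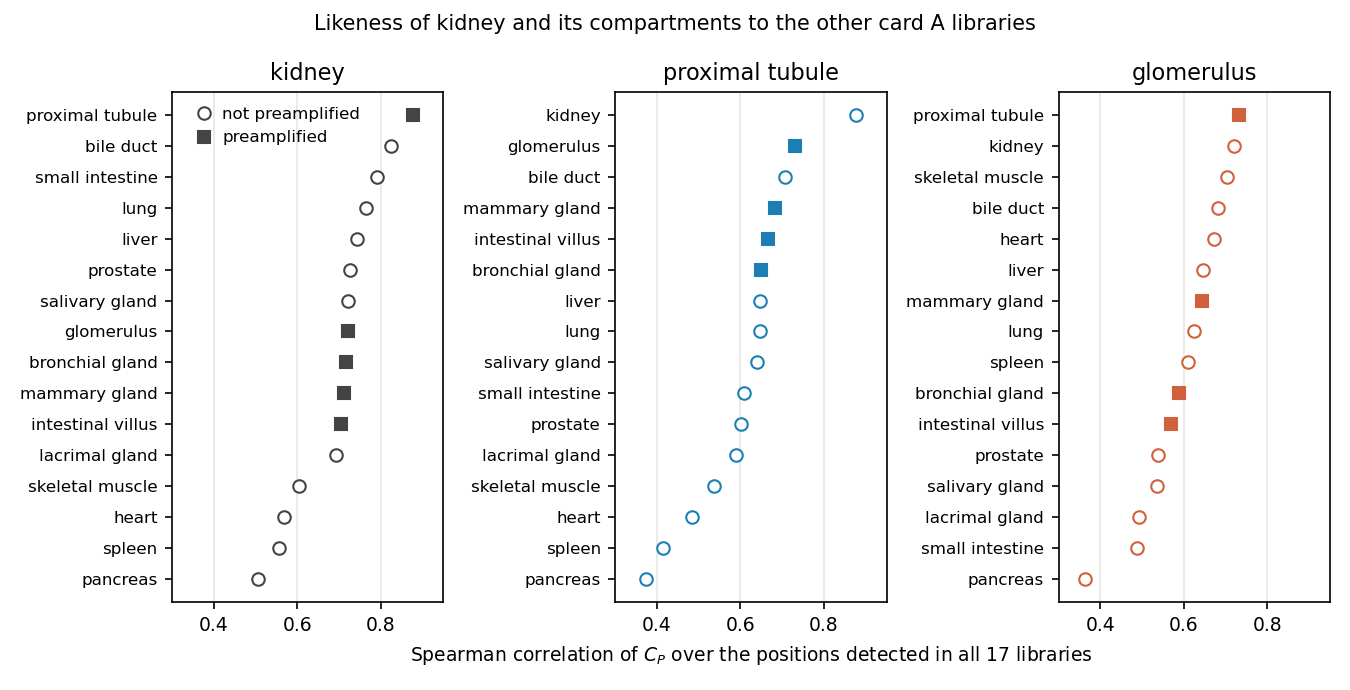
Spearman correlation of CP over the 78 positions detected in all 17 card A libraries (horizontal axis) between kidney, proximal tubule, or glomerulus and each other library (vertical axis). Filled squares are preamplified and open circles not; proximal tubule tops the kidney panel at 0.877 and kidney the proximal tubule panel, whereas the leading libraries of glomerulus lie between 0.672 and 0.731.

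Libraries can share the mean level of a position and the way the RNA was prepared. To lessen these, kidney expression was taken as the difference from the median of the other 11 tissues. That of each compartment was taken as the difference from the median of bronchial gland, mammary gland, and intestinal villus. The sides have no library in common. Over the 160 positions, the Spearman correlation of the kidney difference was 0.682 with that of proximal tubule and 0.441 with that of glomerulus. For the other 11 tissues at the same positions it was between -0.311 (prostate) and 0.306 (skeletal muscle) with proximal tubule. With glomerulus it was between -0.351 (salivary gland) and 0.318 (skeletal muscle). These positions had to be detected in kidney and both compartments, but not in the other tissues. At positions 110 and 249, for example, 8 of the other 11 tissues were undetected. That choice favours kidney in advance, so its values cannot be ranked against those of the other tissues. Some tissues had runs that went on for several more cycles than that of kidney (bile duct, pancreas, prostate, and the salivary and lacrimal glands). Without them, the kidney values were 0.440 and 0.195. Bronchial gland and mammary gland stayed in, although their runs were longer too. Their highest CP on card A was 44.7 and 45.0, against 41.1 in proximal tubule and 41.0 in glomerulus. With all libraries, the kidney values were 0.680 and 0.462 on the scale of the repeated positions. With undetected wells set to the detection limit of their own library, not below all detected ones, they were 0.652 and 0.394. Against the direct difference between proximal tubule and glomerulus, the correlation with all tissues was 0.237 for kidney and 0.275 for small intestine, so kidney did not stand first there.

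The compartments were then compared at the positions where kidney led the other organs. With undetected wells at the detection limit of their own library, which makes each lead a lower bound, kidney stood at least 2 cycles above the median of the other tissues at 12 of the 160 positions. Proximal tubule exceeded glomerulus by at least 2 cycles at 5 of the 12 and glomerulus exceeded proximal tubule at 0. Over all 160 positions the shares were 15% and 11.2%. By at least 0.5 cycles the numbers were 6 and 3 of the 12, to be read beside those of the other positions given below. On the scale of the repeated positions there were again 12, with 4 and 0 at 2 cycles and 6 and 5 at 0.5 cycles. On that scale the numbers at 2 cycles were 14 and 40 of all 160 positions, and those at 0.5 cycles were not counted. With undetected wells ranked below all detected ones there were 22. Of these, 6 and 1 differed at 2 cycles and 9 and 8 at 0.5 cycles, and the median difference was 0.0076 cycles. Kidney lay within 2 cycles of the tissue median at 127 positions. There the numbers were 16 and 17 at 2 cycles and 31 and 50 at 0.5 cycles. At the 11 positions where kidney was at least 2 cycles below that median, they were 2 and 0, and 2 and 5. The 22, 127, and 11 positions make up all 160. By 0.5 cycles, glomerulus was thus the higher compartment more often than proximal tubule outside the 22.

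Positions 14 and 15, among those where kidney was the highest of the 12 tissues, showed no lead of either compartment. At position 15 the scaled CP was -2.41 in kidney, -1.98 in proximal tubule, and -2.03 in glomerulus, and kidney was at least 3.53 cycles above the tissue median. At position 14 it was -2.45, -3.02, and -3.02, and kidney was 2.11 cycles above that median. Both compartments were within 0.1 cycles of each other at positions 14 and 15, unlike at positions 104 and 107. Kidney was also the highest tissue at positions 188, 235, 249, and 196, where the compartments were apart. Glomerulus was higher than proximal tubule by 0.99, 1.03, and 2.98 cycles at 188, 235, and 196. Proximal tubule was higher by 0.90 cycles at 249.

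At 8 positions (5%) kidney was at least 2 cycles above both compartments, and at 7 (4.38%) at least 2 cycles below both. These numbers turned to 1 and 24 with the repeated positions as the scale, and without scaling they were 2 and 10. Position 374 was above both, and the same 7 positions were below both, under each of these scales. The largest difference was at position 374, with CP 27.60 in kidney, 33.96 in proximal tubule, and 32.05 in glomerulus. The positions below both included 362, with 32.47 in kidney, 27.99 in proximal tubule, and 27.95 in glomerulus, and 124, with 32.02, 27.97, and 26.97. They also included positions 1, 376, 164, 25, and 110. At positions 1, 376, 164, and 25 the median of the other 11 tissues was also later than that of the other 3 microdissected samples, by 3.64, 3.54, 2.59, and 4.82 cycles of scaled CP. A gap of at least 2 cycles in this direction was found at 10% of all 160 positions. At 5 of the 8 positions above both, the other tissues were earlier than the other microdissected samples by at least 2 cycles, compared with 12.5% of all positions, or 17.5% with undetected wells at their own limit. These gaps depend on the scale too, and the part of preamplification in these positions was not tested. At position 374 the tissue median minus that of the microdissected samples was -0.29 cycles. At positions 362 and 124 it was -0.73 and -3.45 cycles, opposite in direction to the kidney.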

How the data were processed

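Small RNA was measured by real-time PCR on TaqMan low-density cards, and card A of 3 libraries was used. The authors deposited CP values without normalization, which were treated here as a score in cycles, with 50 where no amplification was recorded. Microdissected samples were cut from stained frozen sections and preamplified for 12 cycles before the card was run. The PCR software settings were not given in the sources used here.

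Positions with CP above 35 were taken as undetected, the 4 repeated positions were left out, and each library was centred on its median CP over the 160 positions that all 3 detected. Differences of at least 2 cycles were counted. Likeness was given by the Spearman correlation over positions. Computation was in Python 3.11.15 (scipy 1.17.1, pandas 2.3.3, and numpy 2.4.6), with plots by matplotlib 3.10.9, and the steps were tested on simulated data. For comparisons across tissues, undetected wells were ranked below all detected ones (scaled CP 11.4), which orders them but gives no size, so leads were also bounded with each library's own limit.

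Named positions were the 5 with the lowest scaled CP in kidney, the 6 with the largest difference in each direction for each pair, and the 6 with the lowest CP in each detection pattern. Positions 14, 15, 25, 115, 164, 188, and 249 fall outside this rule and were chosen after their values were seen. The libraries, positions, and rules were chosen with earlier results of these data known. Alternatives were other detection limits, scales, and thresholds, and the omission of single libraries. With 1 library per group and card, precision is not known, and the wells taken as repeated do not measure it.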

Additional observations from a re-analysis of the deposited data

Results flagged for a closer look

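Among the 5 microdissected samples, proximal tubule stood apart from the others in its likeness to whole kidney. Its Spearman correlation with kidney over the 78 positions detected in all libraries was 0.877, whereas glomerulus, bronchial gland, mammary gland, and intestinal villus lay between 0.705 and 0.721. The gap to the nearest of these was 0.908 of the whole range, above Dixon's critical value of 0.71 for 5 samples. Of 4 measures examined at both ends, this was the 1 that stood apart. For 5 samples of 1 population, chance alone sets 1 in 20 groups apart on each measure. The 5 samples are of different tissues and not replicates of a group, so that rate does not apply to them. The value is a flag and not a test.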

How the results depend on the processing

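The Spearman correlation of kidney with proximal tubule stayed above that with glomerulus under each alternative run, but counts and directions depended on the scale and the threshold. With a detection limit of 32, higher positions were 8 in kidney over proximal tubule, 13 in kidney over glomerulus, and 13 in proximal tubule over glomerulus, and the correlation with glomerulus was 0.745. With a limit of 40, kidney was higher than proximal tubule at 31 positions and than glomerulus at 43. With undetected wells kept at 35, the correlations were 0.781 for proximal tubule and 0.738 for glomerulus.

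With the repeated positions as the scale, kidney was higher than proximal tubule at 5 positions and lower at 27, higher than glomerulus at 12 and lower at 81, and proximal tubule was higher than glomerulus at 14 and lower at 40. Kidney was then nearer to proximal tubule at 64.3% of the positions higher in proximal tubule and 85% of those higher in glomerulus. Without scaling, kidney was higher than proximal tubule at 10 positions, was nearer to proximal tubule at 65% of the positions higher in glomerulus, and its difference from other tissues correlated at 0.515 with that of glomerulus.

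At 1 cycle, kidney against proximal tubule gave 44 higher and 27 lower, glomerulus was higher than kidney at 48, and glomerulus was higher than proximal tubule at 42. At 3 cycles, kidney against proximal tubule gave 5 and 5, glomerulus was higher than kidney at 8, and proximal tubule against glomerulus gave 14 and 6. These compartment differences lie near whole cycles, so a threshold of 3 divides values just above and below 3. Kidney was then nearer to proximal tubule at 85% of positions and at 100% of those higher in proximal tubule. Thresholds of 1.5 and 2.5 cycles were chosen after seeing the data. At 1.5 cycles kidney against proximal tubule gave 28 and 16, proximal tubule against glomerulus 27 and 25, and glomerulus was higher than kidney at 29. At 2.5 cycles kidney was higher than proximal tubule at 8, and proximal tubule against glomerulus gave 15 and 15, with kidney nearer to proximal tubule at 100% of the first 15.

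Without the tissues taken to have longer runs, the differences from other libraries correlated at 0.440 for proximal tubule and 0.195 for glomerulus. With all tissues, the kidney difference correlated at 0.237 with proximal tubule minus glomerulus. Leaving out single other libraries, also chosen after seeing the data, gave 0.654 to 0.709 for proximal tubule and 0.383 (without salivary gland) to 0.476 for glomerulus. Kidney was above both compartments at 1 position with the repeated positions as the scale and 2 without scaling, and below both at 24 with the former. It led the other tissues at 34 positions with the scale from all 17 libraries and at 12 with undetected wells at their own limit. These settings were also chosen after seeing the data. No paired analysis was possible because each group held 1 library. The causes of these changes were not tested.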
